A study of Rattus norvegicus with 9 samples.

Results

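The 10 genes described here encode the force-generating machinery of smooth muscle. They are the smooth muscle actins Acta2 and Actg2, the smooth muscle myosin heavy chain Myh11, the regulatory myosin light chain Myl9, the kinase that phosphorylates it, Mylk, the tropomyosins Tpm1 and Tpm2, calponin (Cnn1), transgelin (Tagln) and leiomodin (Lmod1). They were taken by symbol from the gene table of an RNA-seq study of rat gastric lymphatic vessels. All 10 of 10 symbols were found among the 18964 genes of the table, and all 10 passed the filter on low counts, which left 14643 genes for testing.

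Smooth muscle shortens when myosin heads pull on actin filaments. Calcium, acting through calmodulin, switches on the kinase encoded by Mylk, and phosphorylation of the regulatory light chain lets myosin bind actin, while a phosphatase reverses that step. Collecting lymphatic vessels carry a coat of such muscle whose contractions move lymph between their valves.

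The vessels came from male, wild-type Sprague-Dawley rats of 180 to 220 g. Control rats (3 libraries) were fasted for 12 h, were not stressed and received water by gavage. Model rats (3 libraries) were fasted alike, then kept for 4 h in water 15 cm deep at 22 °C, a stress that produces gastric ulcers, and received a vehicle gavage 30 min later that is named saline in one label and distilled water in the treatment protocol. BXD rats (3 libraries) were fasted and stressed in the same manner and were then gavaged with 10 ml/kg of Banxia Xiexin decoction, a herbal preparation of Chinese medicine. Each group of the study had 6 rats. No label ties a library to 1 animal or to a pool, and p-values therefore reflect the spread among libraries, which may be partly technical.

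The promoters are shown because serum response factor, with its partner myocardin, is known to drive smooth muscle contractile genes through a 10-letter element called the CArG box. RefSeq promoter sequence of assembly GRCr8, a different build from that of the gene table, was matched for 6 of the 10 genes (Acta2, Actg2, Mylk, Tpm1, Tpm2 and Cnn1). The 250 bases before the annotated start were searched on both strands. An exact CArG box lay in 0 of the 6 windows and in 1.497% of 33469 rat promoters of that length, and a match with 1 mismatch allowed lay in Acta2 and Tpm1 and in 17.67% of all promoters. Acta2 and Tpm1 each held 2 such matches, as did 2.69% of all promoters when 2 or more were counted. In Acta2 (chr1:241172504-241172753, minus strand) they began 134 and 84 bases before the start, and in Tpm1 (chr8:76543416-76543665, minus strand) 195 and 55 bases before it. Both windows follow, read 5′ to 3′ on the gene's strand, with the matches in capitals. A match describes these letters and does not show that a factor binds there.
Acta2: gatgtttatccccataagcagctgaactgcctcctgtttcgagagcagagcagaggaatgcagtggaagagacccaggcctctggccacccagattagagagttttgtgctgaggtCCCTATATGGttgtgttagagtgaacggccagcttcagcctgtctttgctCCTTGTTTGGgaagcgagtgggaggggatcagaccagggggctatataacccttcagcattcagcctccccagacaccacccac
Tpm1: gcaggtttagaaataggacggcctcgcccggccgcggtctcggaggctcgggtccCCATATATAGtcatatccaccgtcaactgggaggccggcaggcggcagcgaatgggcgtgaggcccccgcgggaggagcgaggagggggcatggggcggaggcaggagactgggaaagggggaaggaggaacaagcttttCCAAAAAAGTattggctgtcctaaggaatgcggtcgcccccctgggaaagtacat

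Library totals ran from 12313813 to 13455705 counts. Genes of striated muscle, the voluntary and cardiac kind that a lymphatic vessel wall is not built of, were uneven between libraries. Their summed level over 28 genes was 48.2 to 58.9 CPM (counts scaled for the depth and composition of a library) in the control libraries, with 2 of the genes at 0 in all 3. It was 53.5, 544.5 and 32.1 CPM in model replicates 1, 2 and 3, and 8491, 88.4 and 4789 CPM in BXD replicates 1, 2 and 3. BXD replicates 1 and 3 therefore stand apart, and model replicate 2 does so to a lesser degree. Results that rest on these libraries are also given from BXD replicate 2, the BXD library with the fewest striated reads. The summed level of 9 adipocyte markers was 4242 to 5052 CPM in control, 11079 to 20641 CPM in model and 6973 to 10724 CPM in BXD libraries, with 0 of the 9 at 0 in any group. Model replicate 2 had the highest adipocyte sum of the 9 libraries. Markers of the gastric mucosa summed to at most 3.27 CPM in every library, and the part of the adipocyte reads in the results below was not tested.

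In the vessels of stressed rats the contractile genes were lower than in controls. The test, edgeR's quasi-likelihood test with Benjamini-Hochberg adjustment over all 14643 genes, called 8 of the 10 lower at an adjusted p under 0.05 and 0 higher. Of all genes tested, 20.6% were called lower and 42.2% were called in either direction. The median log2 fold change of the 10 genes was -0.84, beside -0.01 for all genes. Levels of 8 of the 10 genes did not overlap between the 3 model and the 3 control libraries, as held for 29.4% of all genes in that direction. Of 6 markers of glia, the cells that ensheath nerves, 4 were called lower and 1 higher in the same comparison (median log2 fold change -1.40). In BXD against model edgeR called 0 of the 6, with 4 higher and 1 lower at an unadjusted p under 0.05 (median 0.87). Their summed level was 446 to 774 CPM in control, 439 to 762 CPM in model and 489 to 696 CPM in BXD libraries. The part of these cells in the result was not tested. In bulk vessels, fewer muscle cells and less of this RNA per muscle cell cannot be told apart.

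Summed over the 10 genes, the control libraries held 6709, 6102 and 9071 CPM, the model libraries 5128, 2917 and 4142 CPM, and the BXD libraries 12993, 9412 and 8999 CPM. Control replicate 3 was the highest control library for 10 of 10 genes, model replicate 2 the lowest model library for 10 of 10, and BXD replicate 1 the highest BXD library for 10 of 10. The genes thus shared their spread within groups as well as their differences between groups.

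**Figure D1:**
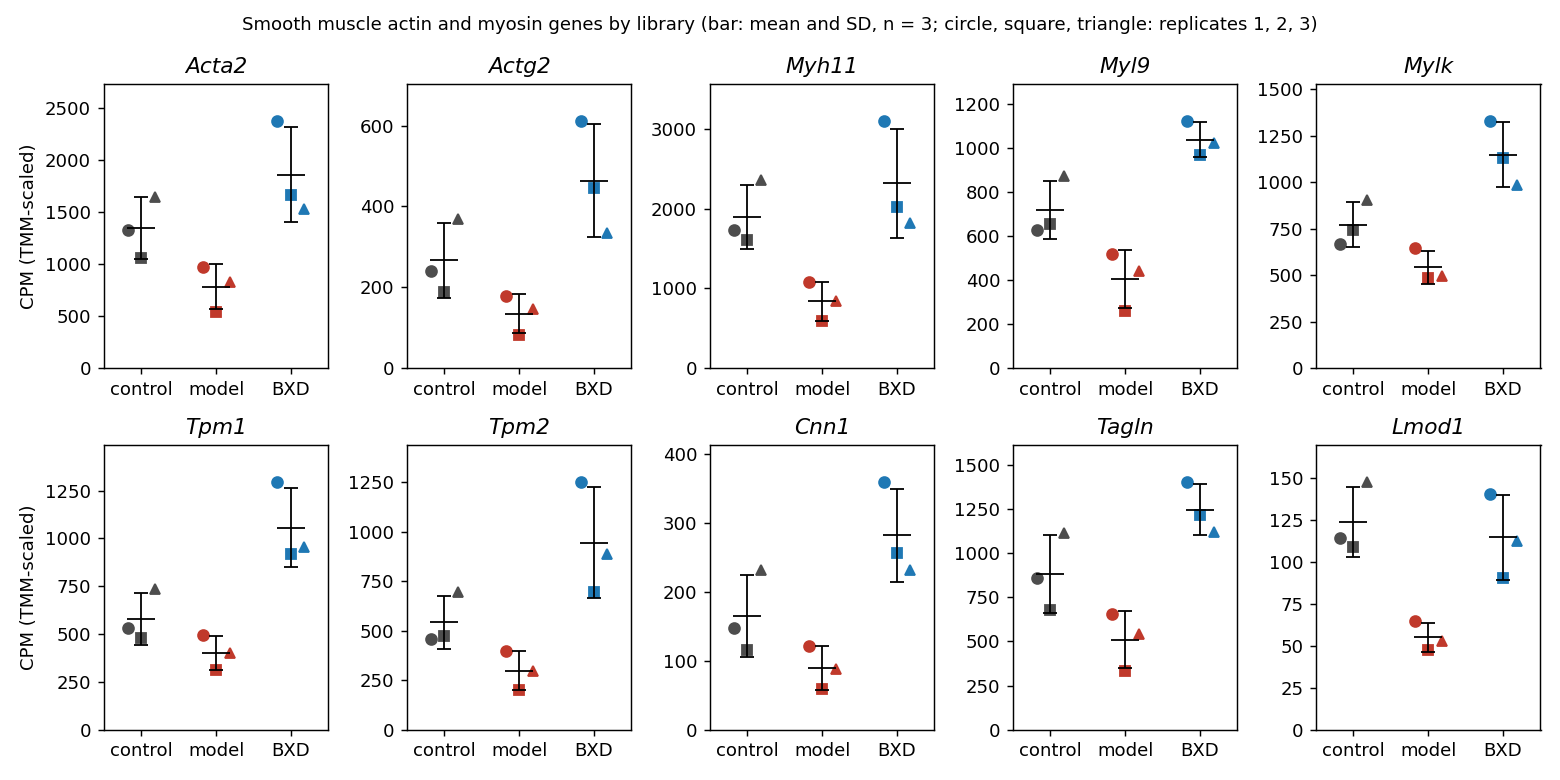
Level of each of the 10 genes in each library, in CPM on a linear axis, with a point per library and the mean and SD (n = 3) of each group as bars. Model points lie below the control points for 8 of the 10 genes (all but Tpm1 and Cnn1) and below the BXD points for all 10.

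Among the filament motors, Myh11 fell most in the model vessels. Its level was 1732, 1600 and 2351 CPM in the control libraries and 1082, 589 and 845 CPM in the model libraries. The highest model library lay below the lowest control library, a 2.26-fold lower level (log2 fold change -1.18, SE 0.27, adjusted p = 0.00928). Myh11 is encoded on chromosome 10 (764421 to 859184, plus strand, build Rnor_6.0 of the authors' table).

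The actins fell too. Acta2, the actin typical of vascular smooth muscle (chromosome 1, 252537614 to 252550394, minus strand), was at 1334, 1062 and 1650 CPM in control and 971, 545 and 833 CPM in model libraries. Its groups were separate by a small margin, 971 against 1062 CPM, and the fold was 1.72 lower (log2 fold change -0.78, SE 0.26, adjusted p = 0.0356). Actg2, the actin typical of visceral smooth muscle (chromosome 4, 115215160 to 115239746, minus strand), was at 240, 189.7 and 369.9 CPM in control and 178.1, 82.5 and 145.6 CPM in model libraries. That was 1.97-fold lower (log2 fold change -0.98, SE 0.34, adjusted p = 0.0443). The coding sequences of actins are closely alike, and reads could be shared out unevenly between them.

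Lmod1, which starts new actin filaments in smooth muscle (chromosome 13, 52147099 to 52189835, plus strand), had the smallest adjusted p of the 10. It was at 113.9, 108.8 and 147.3 CPM in control and 64.5, 47.7 and 52.9 CPM in model libraries. The gap between the groups was wide relative to their spread, and the fold was 2.24 lower (log2 fold change -1.16, SE 0.19, adjusted p = 0.00215).

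The regulatory light chain and its kinase fell as well. Myl9 (chromosome 3, 152857573 to 152863961, plus strand) was at 631, 654 and 872 CPM in control and 518, 259.5 and 442 CPM in model libraries, 1.77-fold lower (log2 fold change -0.82, SE 0.24, adjusted p = 0.0222). Mylk (chromosome 11, 69013060 to 69260039, minus strand) was at 668, 742 and 905 CPM in control and 646, 485 and 497 CPM in model libraries. Model replicate 1 came close to the lowest control library, and Mylk had the smallest fold of the 10, 1.42 lower (log2 fold change -0.51, SE 0.17, adjusted p = 0.04).

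Of the thin-filament proteins, Tpm2 and Tagln passed the test and Tpm1 and Cnn1 did not. Tpm2, a tropomyosin that lies along the actin filament (chromosome 5, 59016561 to 59025976, minus strand), was at 457, 474 and 695 CPM in control and 398, 202.5 and 295.5 CPM in model libraries (log2 fold change -0.86, SE 0.29, adjusted p = 0.0402). Tagln, an actin-binding protein widely used as a smooth muscle marker (chromosome 8, 50222895 to 50228369, minus strand), was at 858, 677 and 1115 CPM in control and 656, 334 and 542 CPM in model libraries (log2 fold change -0.79, SE 0.26, adjusted p = 0.0341). In both genes model replicate 1 lay just under the lowest control library and model replicate 2 far under it.

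Cnn1, which restrains the myosin motor on actin (chromosome 8, 23113083 to 23124134, plus strand), was at 146.9, 115.6 and 231.3 CPM in control and 122, 58.8 and 88.6 CPM in model libraries. Model replicate 1 lay above control replicate 2, and the log2 fold change of -0.87 (SE 0.32) had an adjusted p of 0.0521. Tpm1 (chromosome 8, 72814737 to 72841496, minus strand) was at 529, 478 and 735 CPM in control and 493, 314 and 400 CPM in model libraries. Model replicate 1 again lay above control replicate 2, and the log2 fold change of -0.53 (SE 0.22) had an adjusted p of 0.0818. The authors' deposited table gives q-values under 0.05 for 9 of the 10 genes in this comparison, with Tpm1 at 0.0638. Its headers name the tool DESeq2 for these q-values, and the share of all genes under 0.05 was not computed.

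The count of 8 rests on single libraries at both ends. It was 2 of 10 (Myh11 and Lmod1) without control replicate 3, where 14.9% of all genes were called lower. Without control replicate 1 it was 5, beside 15.6% of all genes. Without model replicate 2 or without model replicate 3 it was 3 (Myh11, Myl9 and Lmod1), beside 14.1% and 15.9% of all genes. Myh11 and Lmod1 passed in each of these fits.

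In the vessels of rats given BXD after the stress, all 10 genes had higher levels than in the model, by 2.08-fold to 3.42-fold, but 0 of the 10 passed the adjusted test. Adjusted p-values ran from 0.0717 to 0.0956 in edgeR's test, which called only 0.0546% of all genes higher. At an unadjusted p under 0.05 the count was 10 of 10, beside 11% of all genes, and DESeq2 called 10 of 10 at an adjusted p under 0.05, beside 4.39% of all genes. The 3 BXD libraries lay above the 3 model libraries for 10 of 10 genes, as held for 10.5% of all genes. The median log2 fold change of the 10 was 1.37, beside -0.01 for all genes. This comparison shares its model libraries with the one above.

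Actg2 had the largest difference between BXD and model. It was at 612, 445 and 334 CPM in the BXD libraries, so that even the lowest lay well above the highest model library (log2 fold change 1.78, SE 0.35, adjusted p = 0.0879). Acta2 was at 2379, 1668 and 1531 CPM, 1.25 above the model on the log2 scale (SE 0.26, adjusted p = 0.0956). Myh11 was at 3099, 2024 and 1821 CPM, 1.47 above it (SE 0.28, adjusted p = 0.0879). In all 3 of these genes BXD replicate 1 was the highest library of the study, while replicate 3 lay within the control range. Replicate 2 lay within that range for Myh11 and above it for Acta2 and Actg2.

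The tropomyosins were also far apart. Tpm2 was at 1251, 698 and 888 CPM in BXD libraries (log2 fold change against the model 1.66, SE 0.30, adjusted p = 0.0784), and Tpm1 at 1294, 918 and 956 CPM (log2 fold change 1.39, SE 0.23, adjusted p = 0.0717). Striated muscle also makes tropomyosin from both genes, and BXD replicates 1 and 3, the libraries with the high striated sums, were the higher ones for both. In BXD replicate 2 alone, 698 CPM of Tpm2 and 918 CPM of Tpm1 still lay above every model library.

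Of the regulatory pair, Mylk stood at 1331, 1128 and 983 CPM in BXD libraries, about double the model (log2 fold change 1.08, SE 0.17, adjusted p = 0.0717). Myl9 stood at 1125, 968 and 1022 CPM, 1.35 above the model on the log2 scale (SE 0.24, adjusted p = 0.0776). For both genes the lowest BXD library lay above the highest control library in CPM as well.

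Cnn1 was at 359, 255.7 and 231.4 CPM in BXD libraries (log2 fold change 1.65, SE 0.32, adjusted p = 0.0879) and Tagln at 1403, 1217 and 1119 CPM (log2 fold change 1.29, SE 0.26, adjusted p = 0.0895). Lmod1 was at 140.5, 90.3 and 112.4 CPM, the smallest fold of the 10 (log2 fold change 1.06, SE 0.19, adjusted p = 0.0817). The authors' deposited table lists DESeq2 q-values from 5.73e-07 to 0.000491 for the 10 genes in this comparison. They come from the same groups and the same tool as the DESeq2 count above, and are not separate evidence.

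**Figure D2:**
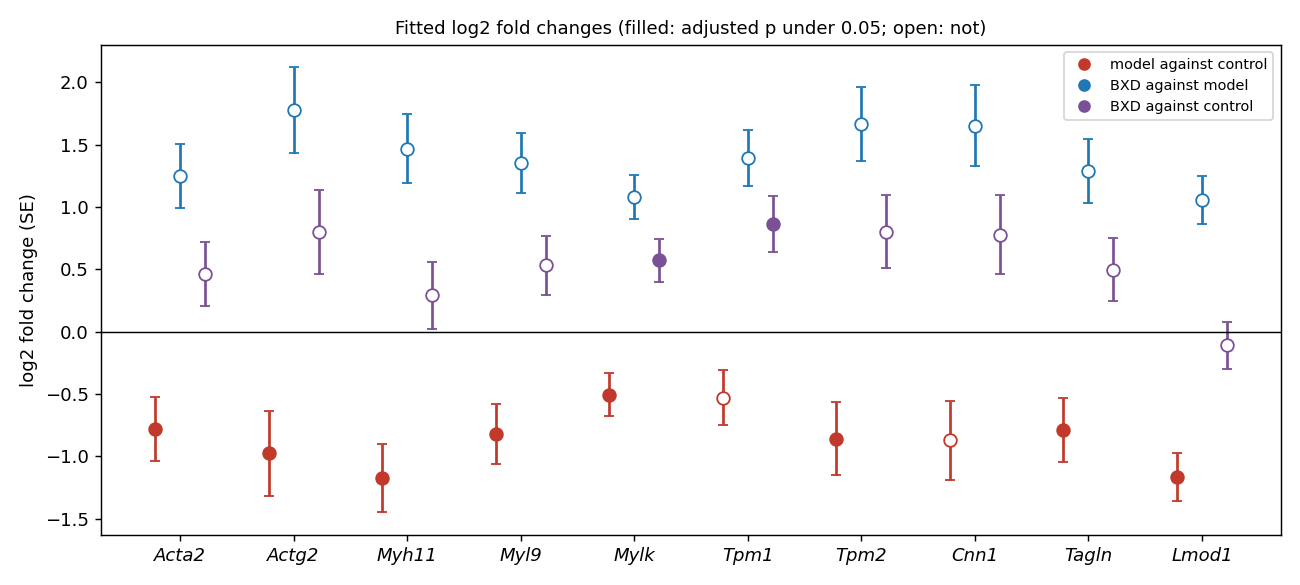
Fitted log2 fold changes of the 10 genes with standard errors as bars, in the 3 comparisons (red for model minus control, blue for BXD minus model, purple for BXD minus control). Filled points have an adjusted p under 0.05, which holds for 8 red, 0 blue and 2 purple points.

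BXD replicate 2 is the BXD library with the lowest striated sum, 88.4 CPM, still above the 48.2 to 58.9 CPM of the control libraries. For 12 of the 23 striated genes tested it exceeded all 3 control libraries, as held for 37.6% of all genes. It lay above all 3 model libraries for 10 of 10 genes, as held for 30.8% of all genes tested. Used as the only BXD library, an alternative chosen after seeing the data, it gave log2 fold changes against the model of 0.71 to 1.72 with a median of 1.24, and 0 of 10 passed (adjusted p 0.205 to 0.26, with a spread pooled from the other groups). With model replicate 2 left out as well, the median was 1.02 and the range 0.63 to 1.47. Without BXD replicate 2, edgeR called 3 of the 10 higher (Tpm1, Tpm2 and Lmod1), beside 0.743% of all genes.

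**Figure D3:**
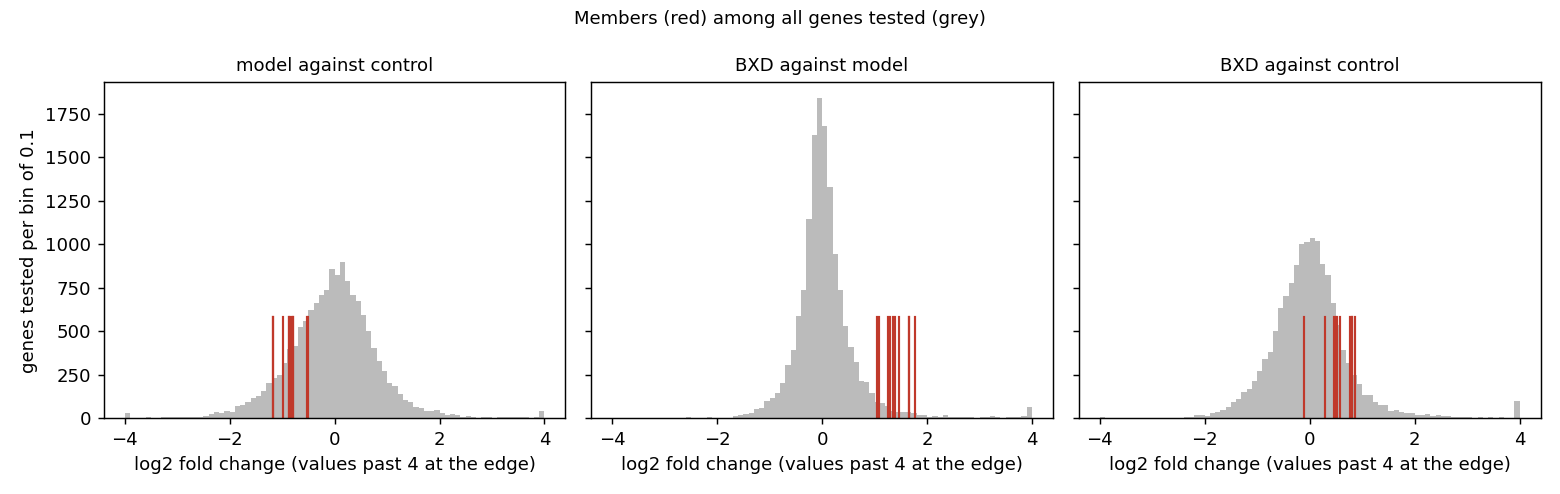
Number of genes tested per bin of log2 fold change (grey), with the 10 contractile genes as red lines of arbitrary height, for the 3 comparisons. In BXD against model the 10 lie between 1.06 and 1.78, to the right of most genes, and in model against control all 10 lie below 0.

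Against the unstressed controls, BXD libraries had higher levels of Tpm1 and Mylk, and the other 8 genes did not pass. Tpm1 rose by 0.86 on the log2 scale (SE 0.22, adjusted p = 0.0185) and Mylk by 0.57 (SE 0.17, adjusted p = 0.033). These 2 of 10 stand beside 16.1% of all genes called higher. DESeq2 called 5 of the 10, adding Actg2, Tpm2 and Cnn1, beside 19.5% of all genes. The authors' deposited table lists 7 of the 10 with a DESeq2 q-value under 0.05, the exceptions being Acta2, Myh11 and Lmod1. The share of all genes was not computed for it.

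In CPM the 3 BXD libraries lay above the 3 control libraries for 6 of the 10 genes (Myl9, Mylk, Tpm1, Tpm2, Cnn1 and Tagln), as held for 23.8% of all genes. The lowest BXD library was barely above the highest control library for Cnn1 (231.36 against 231.32 CPM), Tagln (1119 against 1115 CPM) and Tpm2 (698 against 695 CPM). In the deposited TPM values, scaled by transcript length and depth, Tpm1 stayed apart (872.9 against 811.3). Myl9, Mylk, Tpm2, Cnn1 and Tagln overlapped on that scale. Lmod1 was the 1 gene with a lower mean in BXD than in control (log2 fold change -0.11, SE 0.19, adjusted p = 0.693), and its groups overlapped. BXD replicate 2 alone lay above all 3 control libraries for 8 of 10 genes, beside 37.6% of all genes, and below all 3 for Lmod1. The count of 2 was 0 without control replicate 1, control replicate 2 or BXD replicate 1, beside 10.1%, 9.71% and 16.4% of all genes called higher. It was 1 (Tpm1) without BXD replicate 2, beside 11.8% of all genes. Without control replicate 3 it was 3, beside 10.2%, and without model replicate 2 it was 4, beside 17.4%. This comparison shares its libraries with the other two.

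Levels of different genes can be compared only per length, for which the deposited TPM values, which are scaled by transcript length and depth, were read. In control vessels the order of mean TPM was Acta2 (1947 ± 379), Tagln (1847 ± 421), Myl9 (1374 ± 238), Tpm2 (1062 ± 247), Tpm1 (652 ± 139), Myh11 (487 ± 93.3), Actg2 (403 ± 133), Mylk (273 ± 43.1), Cnn1 (226 ± 77.6) and Lmod1 (46.3 ± 7.0; SD, n = 3 throughout). The model vessels kept this order, from 845 ± 271 TPM for Acta2 to 15.7 ± 3.1 TPM for Lmod1. In BXD vessels the order was the same but for Actg2 (578 ± 173 TPM), which stood above Myh11 (488 ± 142 TPM). Most neighbours in the order overlapped between libraries: in control only Tpm2 and Tpm1, and Cnn1 and Lmod1, were apart. In the model Tpm1 and Myh11, and Cnn1 and Lmod1, were apart. In BXD the neighbours apart were Tagln and Myl9, Tpm1 and Actg2, Myh11 and Mylk, and Cnn1 and Lmod1. Together the 10 genes took 0.758%, 0.71% and 1.03% of TPM in control libraries, 0.457%, 0.226% and 0.388% in model libraries and 1.25%, 0.935% and 0.904% in BXD libraries, so BXD and control overlapped on this scale while model lay below both.

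Across the 9 libraries the levels of the 10 genes followed one another closely. Pearson's r of log2 CPM ran from 0.758 to 0.994 over the 45 pairs, with a median of 0.959. After subtracting group means, r ran from 0.696 to 0.98 with a median of 0.883. The points of each r share their libraries and library scaling, so these values are descriptions.

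Within the set, the proportions of some genes differed between groups. Each gene's log2 FPKM (fragments scaled by transcript length and depth) was read relative to the mean of the 10 in the same library. Myh11 was lower relative to the set in both stressed groups, at -0.13 ± 0.04 in control, -0.48 ± 0.03 in model and -0.42 ± 0.14 in BXD (SD, n = 3 each), with no overlap of either with control. Tpm1 was higher in both, at 0.29 ± 0.003 in control, 0.66 ± 0.13 in model and 0.75 ± 0.15 in BXD (SD, n = 3 each), again with no overlap. Its highest values were those of the libraries with raised striated sums. They were 0.81 in model replicate 2 and 0.78 and 0.88 in BXD replicates 1 and 3. Model replicates 1 and 3 were at 0.57 and 0.61, and BXD replicate 2 was at 0.58. FPKM divides by transcript length, so a shorter length gives a higher FPKM for the same count. The Tpm1 length implied by the deposited values, described below, was 1342 bases in model replicate 2. It was 1239 and 1207 bases in BXD replicates 1 and 3, against 1425 to 1435 in control. This length part was not taken out of the ratios. The part of striated reads in the difference of Tpm1 was not tested. Lmod1 was lower in BXD (-4.18 ± 0.17, SD, n = 3) than in control (-3.52 ± 0.09) and model (-3.79 ± 0.21). With 3 libraries a side an exact permutation test cannot go below a two-sided p of 0.1.

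The proportion of the visceral actin was one of them. Actg2 was 18.9%, 18.7% and 23.5% of Acta2 by FPKM in control libraries, 19.2%, 15.9% and 18.3% in model libraries and 27%, 28% and 22.9% in BXD libraries. BXD and model did not overlap, while BXD replicate 3 lay below control replicate 3. BXD replicate 2, with few striated reads, had the highest proportion.

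The 2 tropomyosin genes make several isoforms by alternative splicing, and the deposited counts and FPKM values carry a trace of them. A gene's estimated count divided by its FPKM gives, up to a factor shared by the library, the mean length of the transcripts to which its reads were assigned. The shared factor was not divided out of the lengths given here. Its size was read from 403 genes with 1 transcript, whose median relative length per library lay between 0.992 and 1.015. The implied length of Tpm1, which has 27 annotated transcripts in the table, was 1425, 1435 and 1430 bases in control libraries, 1415, 1342 and 1374 in model libraries and 1239, 1412 and 1207 in BXD libraries. The 2 shortest were the 2 libraries with high striated sums, and BXD replicate 2 lay near the control libraries. Tpm2 showed the opposite, 860 and 856 bases in BXD replicates 1 and 3 against 809 to 832 in the other 7 libraries. Acta2 and Tagln, each with 1 transcript, varied by 1.76% and 2.56% between libraries, and Tpm1 by 18.94%. No isoform can be named from these values.

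**Figure D4:**
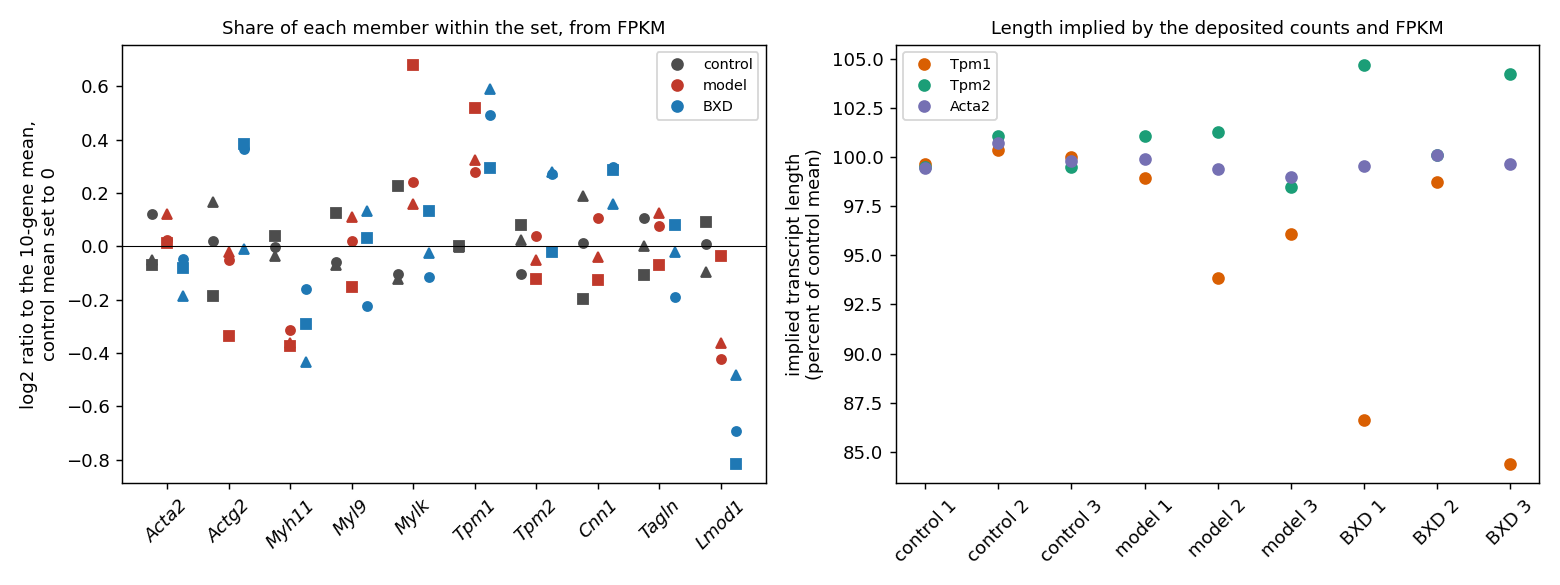
Left, each gene's log2 FPKM relative to the mean of the 10 genes, per library, with the control mean set to 0; Myh11 lies below 0 and Tpm1 above 0 in all model and BXD libraries. Right, implied transcript length of Tpm1, Tpm2 and Acta2 per library as a percentage of the control mean, where BXD replicates 1 and 3 are shortest for Tpm1 (1239 and 1207 bases) and longest for Tpm2 (860 and 856 bases).

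Most other listed proteins of the smooth muscle cytoskeleton were lower in the model than in control and higher in BXD than in the model. Of 22 listed genes 21 were tested. In model against control 5 were called lower and 2 higher, beside 20.6% and 21.6% of all genes. By sign of the log2 fold change 18 of the 21 were lower and 3 higher (median -0.43, beside -0.01 for all genes). Smtnl2, a smoothelin-like protein, was lower (-1.18, SE 0.26, adjusted p = 0.00735), as was the actin-bundling protein Synpo2 (-0.92, SE 0.24, adjusted p = 0.015). Smtnl2 did not follow the pattern in BXD against model (0.22, edgeR adjusted p = 0.673). Smoothelin itself (Smtn), chosen after its values were seen, averaged 178.9 CPM in control and 178.8 CPM in model (-0.0013, edgeR adjusted p = 0.996). In BXD against model Smtn did not pass (0.35, edgeR adjusted p = 0.243). In BXD against model 1 of the 21, the intermediate filament protein Synm, was called higher (1.01, SE 0.11, adjusted p = 0.032), beside 0.0546% of all genes. Levels of 14 did not overlap in that direction, beside 10.5% of all genes. By sign 20 of the 21 were higher and 1 lower (median 0.94, beside -0.01 for all genes). At edgeR's unadjusted p under 0.05, 16 were higher, beside 11% of all genes, and 0 lower. BXD replicate 2 lay above all 3 model libraries for 17 of the 21, beside 30.8% of all genes. Synm was at 135.7, 114.2 and 124.9 CPM in model and 270.3, 251.5 and 232.5 CPM in BXD libraries, and was chosen after its values were seen. In BXD against control 10 were called higher and 1 lower, beside 16.1% and 14.3% of all genes. The 1 called lower was Smtnl2 (-0.96, SE 0.26, edgeR adjusted p = 0.0215). BXD replicate 2 lay above all 3 control libraries for 14 of the 21, beside 37.6% of all genes. Smtnl1, also a smoothelin-like protein, was among the 10 called higher, at 21.5, 0.08 and 15.2 CPM in the BXD libraries. Its call therefore rests on replicates 1 and 3, and it was chosen after its values were seen.

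Of 17 genes that set the phosphorylation of the light chain, 3 were called higher and 4 lower in model against control, near the 21.6% and 20.6% of all genes. Ppp1cb, the catalytic subunit of myosin phosphatase, was higher (0.61, SE 0.10, adjusted p = 0.00223), and so was Rock2, a kinase that inhibits that phosphatase (0.69, SE 0.14, adjusted p = 0.00565). Ppp1r14a, an inhibitor of the phosphatase, was lower (-0.88, SE 0.21, adjusted p = 0.0104), from 34.2, 33.3 and 44 CPM in control to 25.1, 14.5 and 21 CPM in model libraries. In BXD against model 0 of the 17 were called by edgeR, with 4 higher (beside 11% of all genes) and 0 lower at an unadjusted p under 0.05.

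Among the transcriptional regulators, none was called lower in the model by edgeR's test. Of 12 listed 10 were found and tested, and in model against control 2 were called higher and 0 lower, also 0 lower at an unadjusted p under 0.05. The 2 of 10 called higher are near the 21.6% of all genes. They were Klf4, known for repressing contractile genes (1.61, SE 0.41, adjusted p = 0.0127), at 141, 93 and 126.2 CPM in control and 415, 349 and 334 CPM in model libraries, and Tead1 (0.89, SE 0.21, adjusted p = 0.0105). Klf4 was at 544, 246.8 and 146.5 CPM in BXD libraries, which overlapped the model. Myocd, the gene of myocardin, was low, at 11.4, 10.1 and 16 CPM in control, 10.5, 7.8 and 7.67 CPM in model and 30, 15.3 and 8.45 CPM in BXD libraries. It did not pass in any comparison (adjusted p 0.318, 0.191 and 0.352). Srf, the gene of serum response factor, averaged 85, 112 and 125.9 CPM in control, model and BXD (adjusted p against control 0.13 and 0.0555).

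Of 13 non-muscle counterparts tested, 4 were called higher and 1 lower in model against control, beside 21.6% and 20.6% of all genes. Actg1, a cytoplasmic actin, was at 1268, 1101 and 1242 CPM in control and 2317, 1976 and 1747 CPM in model libraries (0.74, SE 0.18, adjusted p = 0.0101), and at 3469, 2894 and 2230 CPM in BXD libraries. Myl12a, a non-muscle regulatory light chain, and Tpm4, a cytoplasmic tropomyosin, were higher by 0.51 (adjusted p = 0.00717) and 0.63 (adjusted p = 0.0109). Actb, the other cytoplasmic actin, did not pass (log2 fold change 0.11, adjusted p = 0.597). The 1 gene called lower was Tagln2, a counterpart of Tagln (-0.57, SE 0.17, adjusted p = 0.0256). By sign of the log2 fold change 7 of the 13 were higher and 6 lower (median 0.08, beside -0.01 for all genes), so the list had no shared direction.

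Striated counterparts were read with the library differences in view. Of 28 found, 23 were tested, and in model against control 1 was called lower, Mylk3 (-1.30, SE 0.38, adjusted p = 0.0246), and 0 higher, beside 20.6% and 21.6% of all genes. At an unadjusted p under 0.05, 1 was higher. In BXD against control 21 were called higher, beside 16.1% of all genes. For 12 of these 21 BXD replicate 2 also lay above all 3 control libraries, as held for 37.6% of all genes. Acta1, the skeletal muscle actin, was at 7.1, 5.45 and 10.3 CPM in control, 6.66, 155.9 and 4.56 CPM in model and 2389, 21.7 and 1575 CPM in BXD libraries. In BXD replicates 1 and 3 its level was thus of the order of Acta2, while in BXD replicate 2 Acta2 was at 1668 CPM beside 21.7 CPM of Acta1. Actc1, the cardiac actin, reached 7.1 and 25.4 CPM in BXD replicates 1 and 3 and stayed under 1 CPM in the other 7 libraries.

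**Figure D5:**
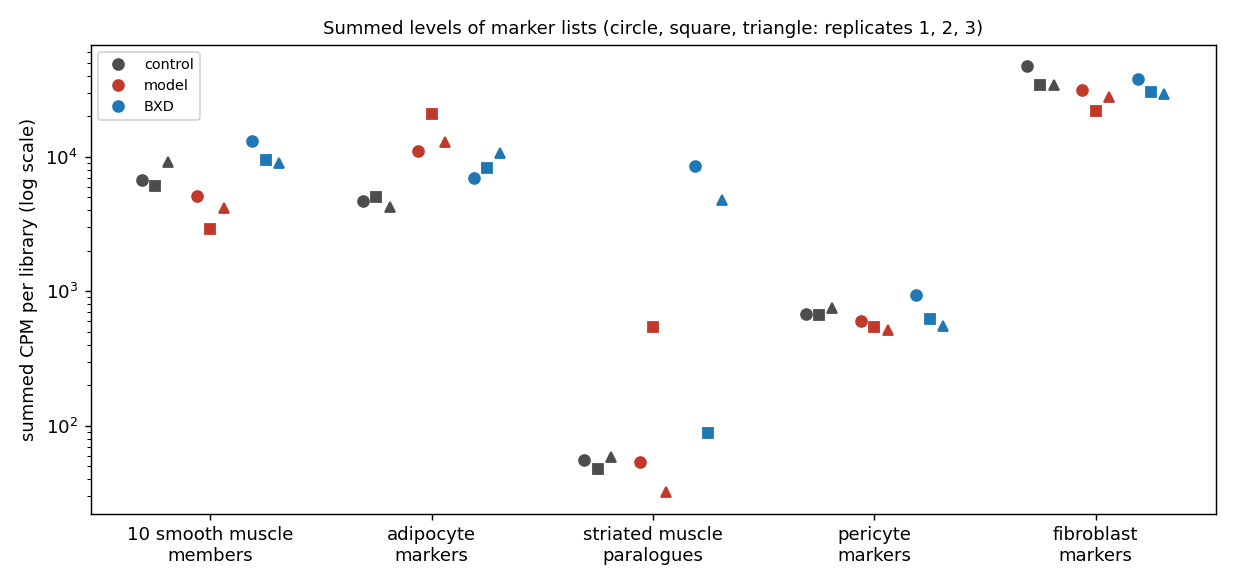
Summed CPM per library on a log scale for the 10 contractile genes and for lists of adipocyte, striated muscle, pericyte and fibroblast genes. The striated sums of BXD replicates 1 and 3 (8491 and 4789 CPM) and of model replicate 2 (544.5 CPM) stand above the others, and the adipocyte sums of the 3 model libraries (11079 to 20641 CPM) above the control libraries.

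The genes whose levels were most like the mean of the 10 were ranked by Pearson's r over the 9 libraries among 9903 other genes averaging 10 CPM or more. Jph2, which couples the surface membrane to the calcium store in muscle, came first at 0.9903. It averaged 63.8 CPM in control, 28 CPM in model and 89.8 CPM in BXD. Ccdc107 (0.9859), the vascular growth factor gene Angpt2 (0.9819), Synpo2 (0.9815), caldesmon (Cald1, 0.9777), the mitochondrial carrier Slc25a12 (0.9751), Ppp1r14a (0.9745) and Cpxm2 (0.9741) followed. Cald1, Synpo2 and Ppp1r14a were also in the lists of contractile and regulatory genes above. The values share libraries and scaling and are given as a description.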

How the data were processed

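Poly(A) RNA of rat gastric lymphatic vessels was sequenced, and build Rnor_6.0, HISAT2 2.2.4 and Bowtie2 2.2.5 are listed in the submitters' processing notes. The counting tool and the strand setting are not given in the sources used here. Per the file headers, the authors deposited an estimated count for each gene, 88.8% of them whole (tolerance 1e-09), beside FPKM and TPM values. Their log2 fold changes and q-values, from another deposited table whose headers name DESeq2, are named as such. Another 45 per-sample columns were not used, and an omeprazole group was not analysed here.

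Counts were rounded, filtered with filterByExpr, scaled by trimmed means (TMM) and fitted with edgeR 4.0.16 (robust quasi-likelihood, R 4.3.3) over all 9 libraries on group alone (6 residual degrees of freedom, biological coefficient of variation 23.3%). A gene is called at a Benjamini-Hochberg adjusted p under 0.05. Alternatives were DESeq2 1.42.0, limma 3.58.1 on log2(FPKM + 1 or + 0.1), limma-voom, other scalings and filters, the replicate number as a block and each library left out. Totals allow a floor of 3 counts at 0.195 to 0.269 CPM, covering counting error only.

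The genes, the lists and the comparisons were chosen with earlier results of these data known. Named genes are the 10 genes, up to 3 called genes with the smallest p in model against control from each list (or 1 where 0 were called), Actb, Actg1, Acta1, Actc1, Myocd, Srf and the 8 most similar genes. Synm, Smtn, Smtnl1, Des and Tagln2 were added after their values were seen. One gene that this rule names is not reported here.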

Additional observations from a re-analysis of the deposited data

How the results depend on the processing

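In model against control, leaving out 1 library at a time gave 2 to 10 of the 10 genes called lower, beside 8 with all libraries. In those fits 14.1% to 23% of all genes were called lower. With BXD replicate 2 as the only BXD library the median log2 fold change of the 10 genes was -0.84. With model replicate 2 left out as well it was -0.61. Both settings were chosen after seeing the data. The median log2 fold change of the 10 genes was -0.83 to -1.13 over the other tools and scalings. Upper quartile scaling, library size alone and FPKM moved the median of all genes to -0.14, -0.28 and -0.22 (pseudocount 1), each with 10 of the 10 called lower (beside 26.7%, 33.5% and 33.4% of all genes), and the share of higher among all calls from 51.17% to 37.67%, 24.8% and 24.84%. In BXD against model the count of 0 became 10 with DESeq2, beside 4.39% of all genes called higher. It was 1 (Mylk) with at least 1 CPM in at least 6 libraries, where 27 of 13534 genes were called in either direction. With limma at FPKM pseudocounts 1 and 0.1 it was 2 (Mylk and Tpm1), beside 0.191% and 0.164% called higher. Leaving out 1 library gave 0 to 3, beside 0% to 0.907%. In BXD against control the count of 2 became 5 with DESeq2, beside 19.5% of all genes called higher. It was 1 with limma at pseudocounts 1 and 0.1, under library size alone and under upper quartile scaling, beside 8.66%, 8.82%, 9.36% and 12%. With only the groups compared it was 4, beside 16%. Leaving out 1 library gave 0 to 4, beside 9.71% to 17.4%. In both settings that keep BXD replicate 2 alone the median log2 fold change was 0.45. The cause of these moves was not tested. The log2 fold change of Lmod1 in BXD against control turned to 0.035 without control replicate 3 and 0.028 without BXD replicate 2, and no other of the 10 genes changed direction in any alternative. The replicate numbers did not pair the samples: same-numbered libraries had r of -0.431 to 0.086 in their deviations from group means, and a library was closest to its own number in 1 of 18 cases. With the replicate number as a block 8, 0 and 2 of the 10 genes were called lower, higher and higher in the 3 comparisons, beside 17.7%, 0% and 13.2% of all genes. Cnn1 was gained and Mylk lost in the first, and Tpm2 gained and Mylk lost in the third. Depth limits none of the 10 genes, whose lowest level was 47.7 CPM, while the 3 libraries per group limit the precision of every comparison.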

Other observations

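Marker lists of other cell types of the vessel wall were read beside the contractile genes. Of all genes, 21.6% were called higher and 20.6% lower in model against control, and the counts of 1 or 2 in these short lists are close to those shares. The summed level of 7 pericyte markers was 669 to 750 CPM in control, 518 to 606 CPM in model and 556 to 942 CPM in BXD libraries, with 1 of the 7 called lower in model against control and 0 in the other comparisons. Of 7 fibroblast markers 2 were called lower in model against control, and their sums were 33940 to 47287 CPM in control, 21876 to 31097 CPM in model and 29301 to 37972 CPM in BXD libraries. Of 5 markers of interstitial cells of Cajal 1 was called lower, and of 7 lymphatic endothelial markers 1 was called in each direction, with sums of 818 to 950 CPM in control and 805 to 1448 CPM in model libraries. Of 7 macrophage markers 3 were called higher in model against control, and their sums were 657 to 709 CPM in model libraries beside 460 to 583 CPM in control and 479 to 570 CPM in BXD libraries. Of 7 blood endothelial markers 1 was called in each direction, and of 6 lymphocyte markers 0 were called by edgeR, also 0 at an unadjusted p under 0.05. All 9 adipocyte markers were called higher in model against control, with a median log2 fold change of 1.64.

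Desmin (Des), chosen after its values were seen, is the intermediate filament protein shared by smooth and striated muscle. It was at 130.6, 153.4 and 281.7 CPM in control, 156.4, 90.4 and 95.2 CPM in model and 671.9, 292.1 and 383.5 CPM in BXD libraries. It was called higher in BXD against control (log2 fold change 1.25, SE 0.38, edgeR adjusted p = 0.0355). The higher BXD values were those of replicates 1 and 3, the libraries with high striated sums. BXD replicate 2, at 292.1 CPM, lay just above control replicate 3, at 281.7 CPM. The part of striated reads in this call was not tested. Model and control overlapped (log2 fold change -0.73, SE 0.38, edgeR adjusted p = 0.152).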
